A study of Schizosaccharomyces pombe with 8 samples.

Results

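The strain difference in polysome relative to total RNA was measured in the fission yeast Schizosaccharomyces pombe, as the polysome to total RNA ratio of each gene in slr1- cells set against the same ratio in WT cells. WT cells were strain yAS99, and slr1- cells carried a knockout of slr1, so each strain gave a total RNA group and a polysome RNA group, 4 groups with 2 biological replicates each. All 8 libraries came from cells grown in YES, a rich yeast extract medium, at 32 °C, and all cells had received 100 µg/mL cycloheximide, an inhibitor of translation elongation that holds ribosomes on their mRNA. Each of the 527 genes in the deposited table with an S. pombe systematic identifier was used, 527 of 527, with no further selection here. The rule by which the depositors selected these genes is not stated, and it may have used counts. The lowest count was 256 in WT total replicate 1 (has1 and tim9), beside 177 in WT total replicate 2 (gdh1). In slr1- total replicate 1 it was 111 (cut6). How the slr1- strain was made and whether it was 1 clone is not given in the sources used here, and slr1 itself was not analysed here.

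Slr1p is the fission yeast relative of LARP1, a La-related RNA-binding protein. In mammalian cells LARP1 binds the 5′ end of mRNAs that begin with a run of pyrimidines, among them the mRNAs of ribosomal proteins, and affects both how stable these mRNAs are and how well they are translated. Polysomes are mRNAs that carry several ribosomes, so RNA that is more abundant in the polysome fraction than in total RNA is often read as RNA under active translation. Polysome RNA relative to total RNA is a ratio, and a ratio can differ between strains because of its polysome part, its total RNA part or both.

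The strain difference used below is on the log2 scale. It is slr1- polysome minus slr1- total RNA, less WT polysome minus WT total RNA, and a value above 0 means a higher polysome to total ratio in slr1- cells. It equals the slr1- minus WT difference in polysome RNA less the slr1- minus WT difference in total RNA, so the same total RNA libraries enter the strain difference and the total RNA comparison. It was tested with edgeR's quasi-likelihood interaction test, adjusted by Benjamini-Hochberg over all 527 genes with a threshold of 0.05. Counts per library are given as normalised read counts, scaled with TMM factors, which set libraries to a common scale from the bulk of the genes and cannot show a change shared by all genes. The p-values measure the spread between these libraries. With 2 libraries per group a gene's own spread has 4 residual degrees of freedom. The test moderates it toward the spread of all genes, with 6.73 prior degrees of freedom.

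Sequences of a few genes at both ends of the strain difference show which elements these mRNAs and promoters carry. The first 20 bases of the annotated transcript are shown because mammalian LARP1 binds mRNAs that begin with a run of pyrimidines. These 20 bases are from RefSeq, build ASM294v3, written 5′ to 3′ on the gene's own strand. Runs of at least 5 pyrimidines (C or T), at any position in them, are in capitals. The ribosomal protein genes rpl14 (chrI:2794901-2794920, plus strand) and rpl2101 (chrII:2503761-2503780, minus strand) and the glycolytic gene pgk1 (chrII:4159442-4159461, minus strand) lay toward the low end. The second copy of the rpl21 gene, rpl2102 (chrI:3400528-3400547, plus strand), and the genes aha1 (chrII:2149053-2149072, plus strand), tif302 (chrI:4310561-4310580, plus strand) and mas5 (chrII:1081375-1081394, plus strand) lay above 0.
rpl14: gCTCTTCCCCTaacaagtca
rpl2101: aacctacagTTCCCTTTCac
pgk1: taaagacaaatccgtctcaa
rpl2102: aaccaggaacagcaatgcct
aha1: gaaattggacgcaacacctt
tif302: aacggcactacaccagaaat
mas5: aaccaTTTCCTaccaCTTTT
Runs stood at both ends of the strain difference, in rpl14 and rpl2101 on the low side and in mas5 on the high side. They were absent from pgk1, rpl2102, aha1 and tif302. No run shown began at the first base of its transcript.

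Of the 527 genes, 2 passed the threshold (0.38% called), 1 in each direction (0.19% each). The polysome to total ratio of aha1, which encodes an activator of the Hsp90 chaperone, rose in slr1- cells, and that of SPMIT.10.1, a gene of the mitochondrial genome without a name in the reference, fell. At an unadjusted p under 0.05 there were 140 genes (26.6%), 96 of them higher in slr1- cells (18.2%) and 44 lower (8.35%). Behind the 2 called genes, 17 genes shared an adjusted p of 0.0531 in the quasi-likelihood test, and 55 genes lay under an adjusted p of 0.1 (10.4%), 38 higher and 17 lower. Of these 17 lower genes, 10 encoded ribosomal proteins, against 2 of the 38 higher genes and 126 of all 527 genes. Genes of ribosomal proteins fused to ubiquitin, and cpc2, are not counted here.

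The number of called genes depended on the processing. On the same counts DESeq2 called 37 genes (7.02%), 19 higher and 18 lower, and limma-voom called 0, with 138 at an unadjusted p under 0.05. With library sizes in place of TMM factors edgeR called 31 genes, 25 higher and 6 lower, against the even split of 1 and 1 with TMM. Leaving out 1 library gave from 0 calls (without slr1- total replicate 1, WT polysome replicate 1 or either slr1- polysome replicate) to 77 (without slr1- total replicate 2), and 32 without WT total replicate 1, 5 without WT total replicate 2 and 3 without WT polysome replicate 2. In each of these fits 1 group has a single library, which is assumed to vary like the other groups, whose pairs alone give the spread. The signs of the 10 most significant genes in each direction were the same in every setting in which the genes were present.

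**Figure D1:**
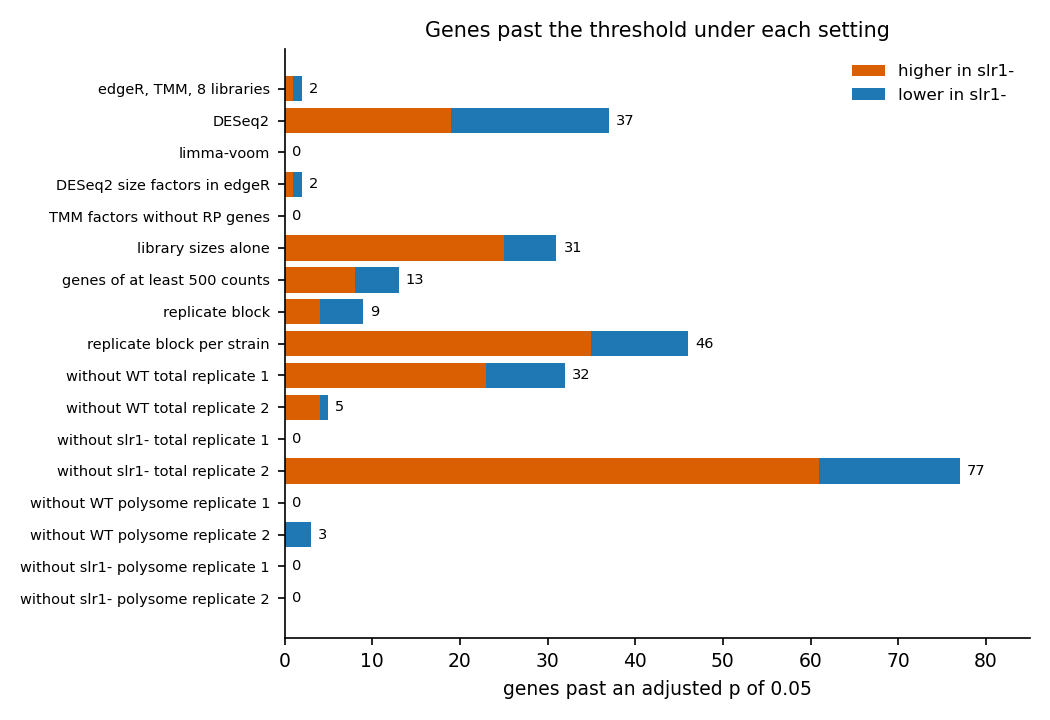
Number of genes past an adjusted p of 0.05 in the interaction test (horizontal axis) for the main fit and 16 alternatives (rows), with genes higher in slr1- in orange and lower in blue. The main fit has 2 genes, DESeq2 has 37, and leaving out 1 library gives 0 to 77.

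Across all genes the strain difference ran from −1.01 to 1.48, with a median of 0.15 and an SD over genes of 0.40, beside a median standard error (SE) of 0.21. It was above 0 for 329 genes (62.4%). The median moved with the scaling, to −0.12 with TMM factors computed without ribosomal protein genes and to 0.24 with library sizes alone, so each gene group below is set beside the median of all genes. In 150 genes (28.5%) every one of the 16 combinations of 1 library per group gave a value above 0, and in 79 genes (15%) every one was below 0. Most genes kept the side they had in WT cells: polysome minus total RNA was above 0 in both strains for 234 genes and below 0 in both for 215. It was below 0 in WT and above 0 in slr1- for 42 genes, and above 0 in WT and below 0 in slr1- for 36, of which 11 were ribosomal protein genes.

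**Figure D2:**
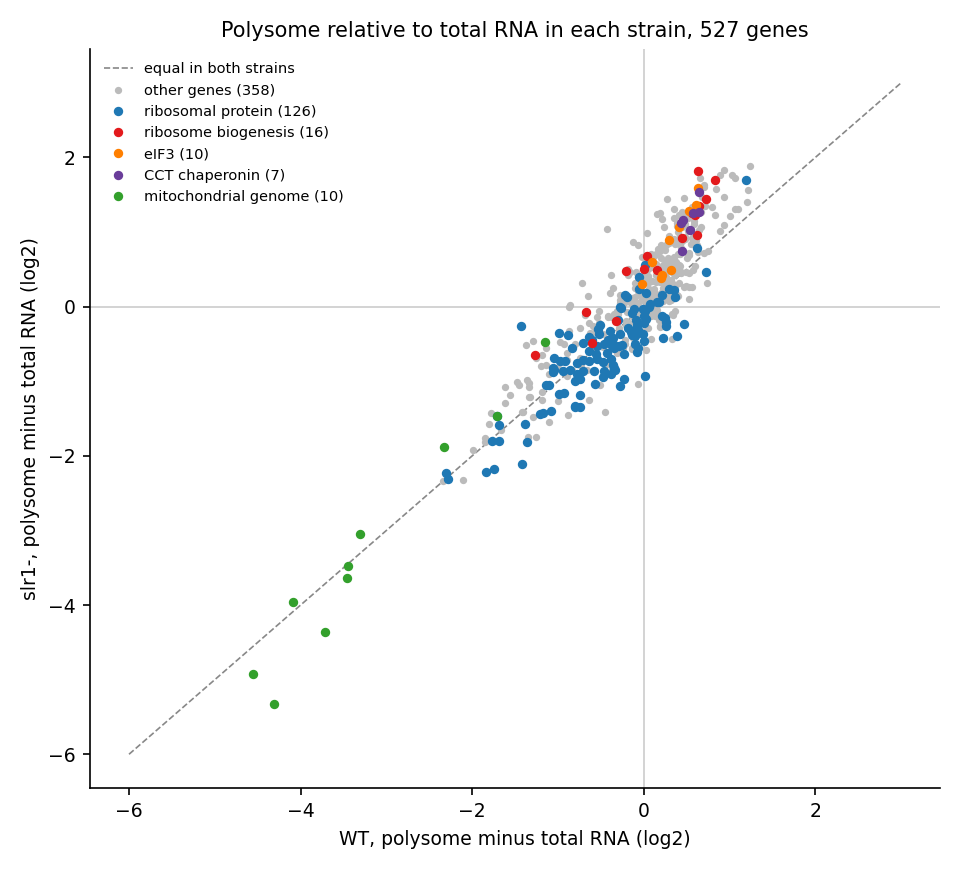
Polysome minus total RNA (log2) in WT (horizontal axis) and slr1- (vertical axis) for 527 genes, with gene groups in colour and the dashed line marking equal values. Most of the 16 ribosome biogenesis, 10 eIF3 and 7 CCT genes lie above the line, most of the 126 ribosomal protein genes lie below it, and the 10 mitochondrial genome genes are below 0 in both strains.

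The gene aha1 (SPBC1711.08.1, chrII:2149053-2150801, plus strand) had 406 and 347 normalised counts in the WT total libraries and 247 and 266 in the slr1- total libraries. Its polysome libraries held 472 and 440 (WT) against 721 and 673 (slr1-). Both slr1- total libraries were below both WT total libraries and both slr1- polysome libraries were above all other libraries, with no overlap between groups. Polysome minus total RNA was 0.28 in WT and 1.44 in slr1-, a strain difference of 1.17 ± 0.20 (SE; edgeR quasi-likelihood, Benjamini-Hochberg adjusted p = 0.0353). The polysome part was 0.61 and the total RNA part −0.55, so both moved the ratio the same way. Over the 15 alternatives that kept aha1 the value was 0.89 to 1.27, with adjusted p from 0.0028 to 0.184. It was past the threshold in 8 of them and missed it with limma-voom, with TMM factors without ribosomal protein genes, and without slr1- total replicate 1 (adjusted p = 0.184), WT polysome replicate 1 (0.163) or 2 (0.1003), or slr1- polysome replicate 1 (0.142) or 2 (0.0903).

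SPMIT.10.1 had 6961 and 7247 normalised counts in the WT total libraries and 10921 and 9613 in the slr1- total libraries. Its polysome libraries held 358 and 358 (WT) against 256 and 257 (slr1-). The slr1- libraries were above the WT libraries among total RNA and below them among polysome RNA. Polysome minus total RNA was −4.31 in WT and −5.32 in slr1-, a strain difference of −1.01 ± 0.15 (SE; edgeR quasi-likelihood, adjusted p = 0.0221). Over the 16 alternatives it was −1.30 to −0.92, with adjusted p from 1.1e-04 to 0.184. It was past the threshold in 10 and missed it with limma-voom, with TMM factors without ribosomal protein genes, and without slr1- total replicate 1 (adjusted p = 0.184), WT polysome replicate 1 (0.0955) or slr1- polysome replicate 1 (0.135) or 2 (0.0903).

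RNA of the mitochondrial genome is translated by ribosomes inside mitochondria and not by cytosolic polysomes. All 10 listed genes of this genome were below 0 in polysome minus total RNA in both strains, with a median of −3.45 in WT and −3.56 in slr1-. Their strain differences were on both sides of 0, with 5 above and 5 below and a median of 0.05 beside 0.15 over all genes. That median has no stable sign: it was below 0 in 11 of the 16 alternatives, and ran from −0.67 without slr1- polysome replicate 1 to 0.31 without replicate 2. SPMIT.11.1, with −0.64 ± 0.22, and SPMIT.01.1, with 0.45 ± 0.23, did not pass the threshold (edgeR quasi-likelihood, adjusted p = 0.106 and 0.235). The sum of normalised counts over these 10 genes was 36290.4 and 44157.3 in the WT total libraries, 36241.3 and 39377.4 in the slr1- total libraries, 3317.1 and 3688.2 in the WT polysome libraries, and 3003.8 and 2137.2 in the slr1- polysome libraries. The sums of the strains overlapped for total RNA and did not overlap for polysome RNA.

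**Figure D3:**
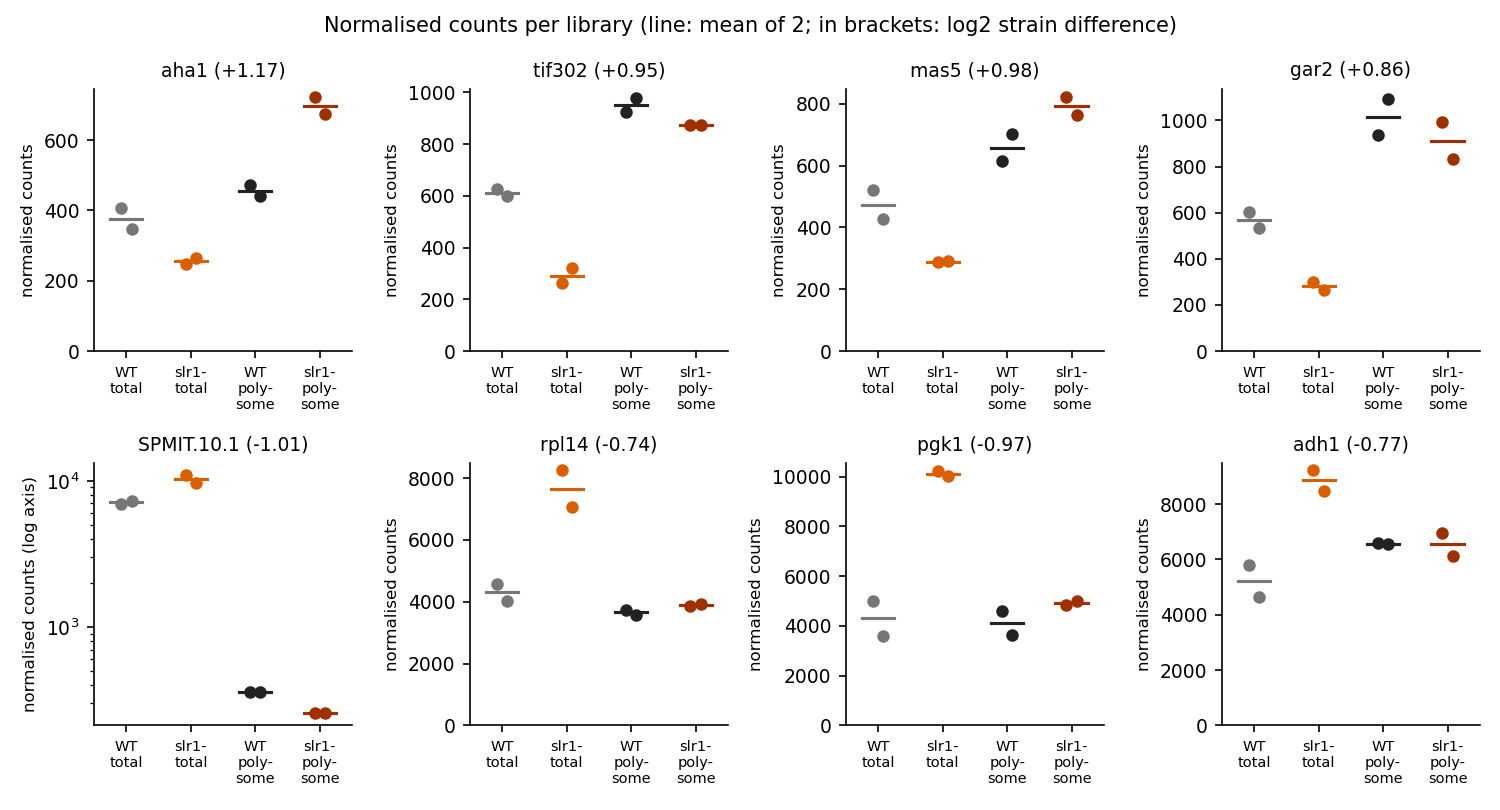
Normalised counts per library (vertical axis, logarithmic for SPMIT.10.1 and from 0 for the others) of 4 genes with a strain difference above 0 and 4 below 0, by group (horizontal axis), with points for the 2 libraries and a line for their mean. The tif302 points are 626 and 598 in the WT total libraries and 263 and 321 in the slr1- total libraries, while those of rpl14 are 4571 and 4038 in the WT total libraries and 8246 and 7064 in the slr1- total libraries.

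Among genes with a higher ratio in slr1- cells, the 9 that follow aha1 by p did not pass the threshold (edgeR quasi-likelihood, adjusted p = 0.0531 for each). The gene tif302, the eIF3b subunit of the initiation factor that recruits the small ribosomal subunit to mRNA, had 626 and 598 normalised counts in the WT total libraries, 263 and 321 in the slr1- total libraries, 923 and 977 in the WT polysome libraries, and 876 and 873 in the slr1- polysome libraries. Its total RNA libraries separated the strains widely, and its polysome libraries lay closer together, with slr1- below WT. The strain difference of tif302 was 0.95 ± 0.19 (SE), from a polysome part of −0.12 and a total RNA part of −1.07. The CTP synthase gene cts1 had 569 and 476 in the WT total libraries, 246 and 246 in the slr1- total libraries, 546 and 642 in the WT polysome libraries, and 608 and 569 in the slr1- polysome libraries. Its polysome libraries overlapped between strains and its total RNA libraries did not, and its strain difference was 1.08 ± 0.21.

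The nucleolin gene gar2, which acts in ribosomal RNA processing, had 603 and 535 normalised counts in the WT total libraries, 297 and 264 in the slr1- total libraries, 937 and 1094 in the WT polysome libraries, and 991 and 831 in the slr1- polysome libraries. Its strain difference was 0.86 ± 0.21, again with separated total RNA libraries and overlapping polysome libraries. The gene hcs1, which encodes HMG-CoA synthase of the sterol pathway, had a strain difference of 1.08 ± 0.24. The value of ret3, a subunit of the coatomer of transport vesicles, was 1.04 ± 0.24, and that of ani1 was 0.69 ± 0.17. The largest strain difference of all genes was 1.48 ± 0.36, for SPCC24B10.18, whose WT total RNA libraries held 357 and 657 normalised counts. Without WT total replicate 2 it was 0.97 (adjusted p = 0.113).

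The genes mas5, an Hsp40 co-chaperone, and wos2, the p23 co-chaperone of Hsp90, had a higher level in the slr1- polysome libraries, as aha1 did. For mas5 the normalised counts were 520 and 427 in the WT total libraries, 288 and 291 in the slr1- total libraries, 613 and 703 in the WT polysome libraries, and 821 and 762 in the slr1- polysome libraries. For wos2 they were 1200 and 1046 in the WT total libraries, 782 and 1025 in the slr1- total libraries, 1189 and 1117 in the WT polysome libraries, and 1905 and 1658 in the slr1- polysome libraries. Both genes had their 2 highest values in the slr1- polysome libraries. Their polysome parts were 0.27 and 0.63 and their strain differences 0.98 ± 0.21 and 0.94 ± 0.21.

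In all 10 of the top higher genes total RNA was lower in slr1- than in WT, by −1.48 to −0.31, beside 319 of all 527 genes. Their polysome part was −0.16 to 0.63. These 10 genes were picked by the strain difference, from which the total RNA part is subtracted, so the direction in total RNA is partly built in. The polysome part was the smaller in size for 8 of these 10 and for all 10 of the top lower genes, beside 413 of all 527 genes (78.4%).

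Among genes with a lower ratio in slr1- cells, those that follow SPMIT.10.1 by p did not pass the threshold (edgeR quasi-likelihood, adjusted p from 0.0531 to 0.074). The gene rpl14 (chrI:2794901-2795753, plus strand), which encodes a large subunit ribosomal protein, had 4571 and 4038 normalised counts in the WT total libraries, 8246 and 7064 in the slr1- total libraries, 3744 and 3583 in the WT polysome libraries, and 3862 and 3922 in the slr1- polysome libraries. Its strains were far apart in total RNA and close, without overlap, in polysome RNA, and its strain difference was −0.74 ± 0.16. Other ribosomal protein genes among the 10 were rps1902 (−0.65 ± 0.16), rpl2101 (−0.95 ± 0.23), rpl2801 (−0.78 ± 0.20) and rpl3001 (−0.47 ± 0.13), with ubi3 (−0.57 ± 0.16), which encodes ubiquitin fused to a ribosomal protein.

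The glycolytic gene pgk1, phosphoglycerate kinase, had 5007 and 3609 normalised counts in the WT total libraries, 10209 and 10031 in the slr1- total libraries, 4581 and 3642 in the WT polysome libraries, and 4849 and 4983 in the slr1- polysome libraries. Its strain difference was −0.97 ± 0.22, with a total RNA part of 1.23 and a polysome part of 0.26. The alcohol dehydrogenase gene adh1 had 5779 and 4657 in the WT total libraries, 9245 and 8478 in the slr1- total libraries, 6588 and 6555 in the WT polysome libraries, and 6966 and 6137 in the slr1- polysome libraries, and a strain difference of −0.77 ± 0.17. In both genes the slr1- total libraries were the highest of the 8. The value of pmp20, a peroxiredoxin, was −0.96 ± 0.23. In all 10 top lower genes total RNA was higher in slr1-, by 0.53 to 1.40, beside 208 of all 527 genes. This direction too is partly built into the way the genes were picked. Their polysome part was −0.48 to 0.44.

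The mRNAs of ribosomal proteins, the classical LARP1 targets in mammals, made up 126 of the 527 genes, and none was called. The ubiquitin fusion genes and cpc2, also annotated as ribosomal proteins, are not among the 126 and count as other genes. The median strain difference of the 126 was −0.13, beside 0.15 over all genes and 0.24 over the 401 other genes. Of the 126, 85 were below 0. At an unadjusted p under 0.05 there were 27 below 0 and 5 above, against 8.35% and 18.2% of all genes. All 16 library combinations were below 0 in 41 and above 0 in 11, against 15% and 28.5% of all genes. The median was below 0 in all 16 alternatives, from −0.41 with TMM factors without these genes to −0.05 with library sizes alone. Without 1 library it ran from −0.22 (WT polysome replicate 2 left out) to −0.06 (slr1- total replicate 1 left out). Less the all-gene median of the same setting, it was −0.28 in the main fit and −0.42 to −0.11 over the alternatives. Polysome minus total RNA had a median below 0 in both strains, −0.37 in WT and −0.52 in slr1-, beside 0.01 and 0.06 over all genes.

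Over the ribosomal protein genes the median slr1- minus WT difference was 0.38 in total RNA and 0.27 in polysome RNA, beside −0.19 and −0.03 over all genes. Summed over the 126 genes, the WT total libraries held 365529.0 and 354967.6 normalised counts and the slr1- total libraries 494626.2 and 447352.7, while the polysome libraries held 242593.6 and 244225.3 for WT against 281824.4 and 298544.7 for slr1-. The strains did not overlap in either pool.

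Large subunit genes (74) had a median of −0.18 and kept that sign in all 16 alternatives (−0.27 to −0.09 without 1 library). For the 52 genes of the small subunit the median was −0.07, which turned to 0.02 with library sizes alone and to 0.04 without slr1- total replicate 1. Less the all-gene median of the same setting, it stayed below 0 in all 16 alternatives, at −0.35 to −0.05. The 7 acidic stalk genes, whose proteins recruit elongation factors to the ribosome, were all below 0, with a median of −0.25 (−0.44 to −0.18 without 1 library) and rpp203 lowest at −0.70 ± 0.21 (edgeR quasi-likelihood, adjusted p = 0.0757). The highest ribosomal protein gene was rpl39, at 1.17 ± 0.36 (adjusted p = 0.086). Its WT total RNA libraries differed from each other, with 6537 and 10637 normalised counts, against 5292 and 4952 in the slr1- total libraries, 2639 and 3730 in the WT polysome libraries, and 3309 and 5242 in the slr1- polysome libraries. The polysome libraries of rpl39 overlapped between strains.

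Fission yeast encodes most ribosomal proteins with more than 1 gene copy. Matched by numbered symbols, 48 families had at least 2 listed copies, 99 genes in all. Pairs in which a copy has an unnumbered symbol, such as rpl15 with rpl1502 and rps23 with rps2302, were not counted. In the 48 families the median gap between the highest and lowest copy was 0.27, and in 17 of them the copies had opposite signs. Copies are close in sequence, so reads may have been divided between them with error. In the rpl21 pair, rpl2101 had 502 and 408 normalised counts in the WT total libraries, 1127 and 887 in the slr1- total libraries, 458 and 463 in the WT polysome libraries, and 483 and 571 in the slr1- polysome libraries. Its partner rpl2102 had 1562 and 1593 in the WT total libraries, 1762 and 1618 in the slr1- total libraries, 705 and 824 in the WT polysome libraries, and 920 and 1176 in the slr1- polysome libraries. The rpl2101 strains were widest apart in total RNA and the rpl2102 strains in polysome RNA, giving strain differences of −0.95 ± 0.23 and 0.36 ± 0.19.

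The rpl32 pair had the next widest gap, and here rpl3202 stood above 0. It had 4505 and 4105 normalised counts in the WT total libraries, 3888 and 3993 in the slr1- total libraries, 2129 and 2226 in the WT polysome libraries, and 2838 and 3356 in the slr1- polysome libraries, a strain difference of 0.64 ± 0.16 (edgeR quasi-likelihood, adjusted p = 0.0551). Its partner rpl3201 had 3206 and 3124 in the WT total libraries, 5331 and 4891 in the slr1- total libraries, 1529 and 1461 in the WT polysome libraries, and 1844 and 2040 in the slr1- polysome libraries, a strain difference of −0.31 ± 0.15 (adjusted p = 0.202). In total RNA the slr1- libraries were higher than WT for rpl3201 and lower for rpl3202. The difference between copies was not tested.

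**Figure D4:**
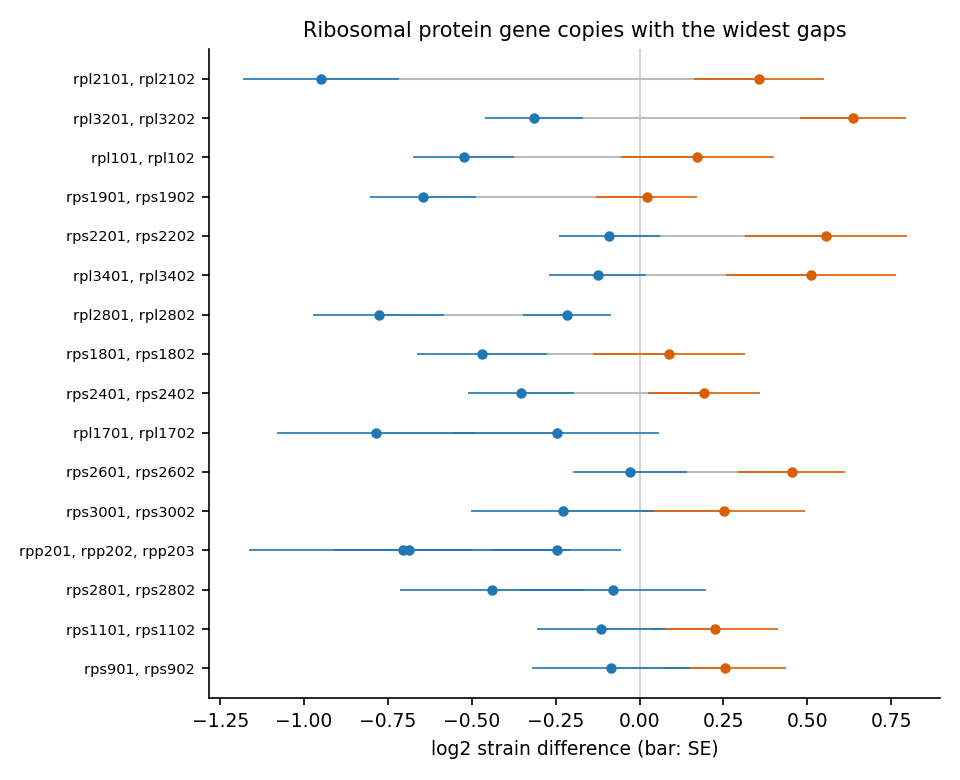
Log2 strain difference (horizontal axis, with bars of 1 SE) of ribosomal protein gene copies, for the families with the widest gaps (rows). Families were matched by numbered symbols, and copies above 0 are in orange and below 0 in blue. The rpl21 pair lies at −0.95 and 0.36 and the rpl32 pair at −0.31 and 0.64.

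Promoters of ribosomal protein genes in fission yeast carry the HomolD box, an element that takes the place of a TATA box. The stretches below show it in rpl14, in both copies of the rpl21 pair, which had opposite signs, and in rpl3201. They are from RefSeq, build ASM294v3, on the strand of the gene, with the box in capitals, CAGTCACA or on the other strand TGTGACTG. The box of rpl14 (chrI:2794840-2794879, plus strand) began at −45 from the transcript start, that of rpl2101 (chrII:2503811-2503850, minus strand) at −54, that of rpl2102 (chrI:3400457-3400496, plus strand) at −55 and that of rpl3201 (chrII:4351813-4351852, plus strand) at −49.
rpl14: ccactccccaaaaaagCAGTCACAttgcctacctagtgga
rpl2101: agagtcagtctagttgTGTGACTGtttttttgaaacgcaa
rpl2102: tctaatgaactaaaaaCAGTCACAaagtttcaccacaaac
rpl3201: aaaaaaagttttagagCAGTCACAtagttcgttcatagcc
In the window from 250 bases before to 50 bases after the start, rpl3202, the partner of rpl3201, had no CAGTCACA on either strand.

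CAGTCACA stood on either strand in 81 of 126 ribosomal protein promoters (64.3%), 22 of 389 other listed promoters (5.66%) and 137 of all 5112 protein-coding promoters of the reference (2.68%). The median strain difference was −0.14 for the 81 ribosomal protein genes with a HomolD box and −0.09 for the 45 without. A run of at least 5 pyrimidines in the first 20 transcript bases was present in 36 of the 126 (28.6%) and 1706 of the 5112 (33.4%). Genes with the run had a median of −0.07 and the other 90 ribosomal protein genes −0.15. The run was counted at any position in the 20 bases, so these shares do not measure transcripts that begin with one.

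The genes of ribosome assembly and of eIF3 stood above the all-gene median. The 16 genes of ribosome biogenesis and small nucleolar ribonucleoproteins were all above 0, with a median of 0.63 that kept its sign in all 16 alternatives (0.34 with TMM factors without ribosomal protein genes, 0.39 without slr1- polysome replicate 1). None was called, 10 had an unadjusted p under 0.05, and in 12 every library combination was above 0, against 18.2% and 28.5% of all genes. Their summed normalised counts were 11395.8 and 12865.9 in the WT total libraries, 8686.1 and 8855.7 in the slr1- total libraries, 12361.6 and 12499.5 in the WT polysome libraries, and 12582.1 and 11289.6 in the slr1- polysome libraries. The sums separated the strains for total RNA and overlapped for polysome RNA. Their median slr1- minus WT difference was −0.70 for total RNA and −0.09 for polysome RNA. The highest was gar1, a protein of the snoRNPs that make pseudouridine, at 1.18 ± 0.33 (edgeR quasi-likelihood, adjusted p = 0.0712), followed in the named set by gar2 and the RNA helicase gene dbp2, at 0.69 ± 0.19 (0.0645).

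All 10 eIF3 genes were above 0, with a median of 0.55 and the same sign in all 16 alternatives. None was called, 6 had an unadjusted p under 0.05, and 8 were above 0 in every library combination, against 18.2% and 28.5% of all genes in that direction. Beside tif302 these were led by int6, the eIF3e subunit, at 0.75 ± 0.19 (edgeR quasi-likelihood, adjusted p = 0.0596) and tif303, the eIF3c subunit, at 0.75 ± 0.20 (0.0645). Summed normalised counts of eIF3 genes were 6589.8 and 6931.4 in the WT total libraries, 4301.7 and 4900.9 in the slr1- total libraries, 8299.9 and 8585.4 in the WT polysome libraries, and 8253.1 and 7744.2 in the slr1- polysome libraries. The slr1- sums lay below the WT sums in both pools, by a wide margin in total RNA and a narrow one in polysome RNA.

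The other translation factors were less uniform. The 12 other initiation factor and poly(A)-binding protein genes had a median of 0.25. It turned to −0.02 with TMM factors without ribosomal protein genes and was 0.05 without slr1- polysome replicate 1. Less the all-gene median of the same setting, it stayed above 0 in all 16 alternatives, at 0.01 to 0.14. Here tif212, the beta subunit of eIF2, was at 0.83 ± 0.21 (edgeR quasi-likelihood, adjusted p = 0.0605), and pabp, the poly(A)-binding protein gene, at −0.45 ± 0.17 (0.12). Of 6 elongation and termination factor genes, tef3 (elongation factor 3) was at −0.62 ± 0.19 and the release factor genes erf1 and sup35 at 0.61 ± 0.21 and 0.52 ± 0.23. Their median of 0.13, just below the 0.15 of all genes, turned to −0.15 with the same factors and was 0.03 without slr1- polysome replicate 2. It changed its side of the all-gene median in 5 of the 16 alternatives. The 16 aminoacyl-tRNA synthetase genes, which charge tRNAs, had a median of 0.24. It turned to −0.02 with those factors and was also below 0 among genes of at least 500 counts. Without 1 library it ran from 0.04 (slr1- total replicate 1 left out) to 0.48 (slr1- total replicate 2 left out). Its side of the all-gene median changed in 3 of the 16 alternatives.

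The 4 RNA polymerase I and III subunit genes and the 4 La and LSm genes were all above 0, with medians of 0.51 and 0.63. Both kept their sign in the 15 alternatives that gave a value; among genes of at least 500 counts too few members were left for a median. Without 1 library they ran from 0.27 to 0.58 and from 0.35 to 0.86. The first group was led by rpc10 at 1.00 ± 0.27 (edgeR quasi-likelihood, adjusted p = 0.0645). The second was led by sla1, the La protein gene, at 0.90 ± 0.34 (0.12).

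Genes of cytosolic protein folding also stood above the all-gene median. All 7 listed genes of CCT, the chaperonin that folds actin and tubulin, had every library combination above 0, against 28.5% of all genes. Of the 7, 6 had an unadjusted p under 0.05, against 18.2% of all genes in that direction. Their median of 0.68 was the highest of the lists with at least 5 members. It kept its sign in the 15 alternatives that gave a value, since no CCT gene had a mean of at least 500 counts. The 7 genes had 258 (cct5) to 357 (cct7) counts in WT total replicate 1, where no listed gene had under 256. All alternatives used genes selected in the same way, and how far this selection raised the CCT values was not tested. None of the 7 was called. The gene cct4 was at 0.89 ± 0.24 (edgeR quasi-likelihood, adjusted p = 0.0645), cct7 at 0.70 ± 0.21 (0.087) and cct5 at 0.68 ± 0.23 (0.106). Summed normalised counts were 2136.9 and 2088.9 in the WT total libraries, 1126.6 and 1436.0 in the slr1- total libraries, 3042.6 and 3075.7 in the WT polysome libraries, and 2910.7 and 2719.0 in the slr1- polysome libraries. Again the strains were wide apart in total RNA and close in polysome RNA, with slr1- below WT in both.

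The 12 cytosolic and endoplasmic reticulum chaperone genes were all above 0 with a median of 0.35, and 1 of them, aha1, was called. Other members were sti1, an adaptor between Hsp70 and Hsp90, at 0.63 ± 0.25, and hsp90 at 0.63 ± 0.34. The 12 genes had a median polysome part of 0.10, above the −0.03 of all genes, and a total RNA part of −0.39. The median strain difference kept its sign in all 16 alternatives, and was 0.20 without slr1- total replicate 1 and 0.63 without slr1- total replicate 2. The 3 mitochondrial chaperone genes were mcp60 (0.50 ± 0.25), ssc1 (0.07 ± 0.23) and hsp10 (−0.14 ± 0.18), none past the threshold, and their median of 0.07 was below that of all genes.

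The 14 genes of glycolysis and fermentation had the lowest median, −0.29, and 11 were below 0. The median kept its sign in all 16 alternatives, from −0.57 with TMM factors without ribosomal protein genes to −0.21 with library sizes alone. Less the all-gene median of the same setting, it was −0.44 in the main fit and −0.49 to −0.29 over the alternatives. None was called. At an unadjusted p under 0.05 there were 4 below and 0 above, against 8.35% and 18.2% of all genes. All library combinations were below 0 in 7 and above 0 in 0, against 15% and 28.5% of all genes. Their summed normalised counts were 90286.3 and 75804.8 in the WT total libraries, 109116.5 and 111720.2 in the slr1- total libraries, 82329.0 and 79221.4 in the WT polysome libraries, and 81451.7 and 89366.3 in the slr1- polysome libraries. The sums were higher in the slr1- total libraries without overlap and overlapped in polysome RNA. Beside pgk1 and adh1 the pyruvate decarboxylase gene pdc101 was at −0.43 ± 0.13 (edgeR quasi-likelihood, adjusted p = 0.087), while the aldolase gene fba1 was at 0.08 ± 0.14.

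**Figure D5:**
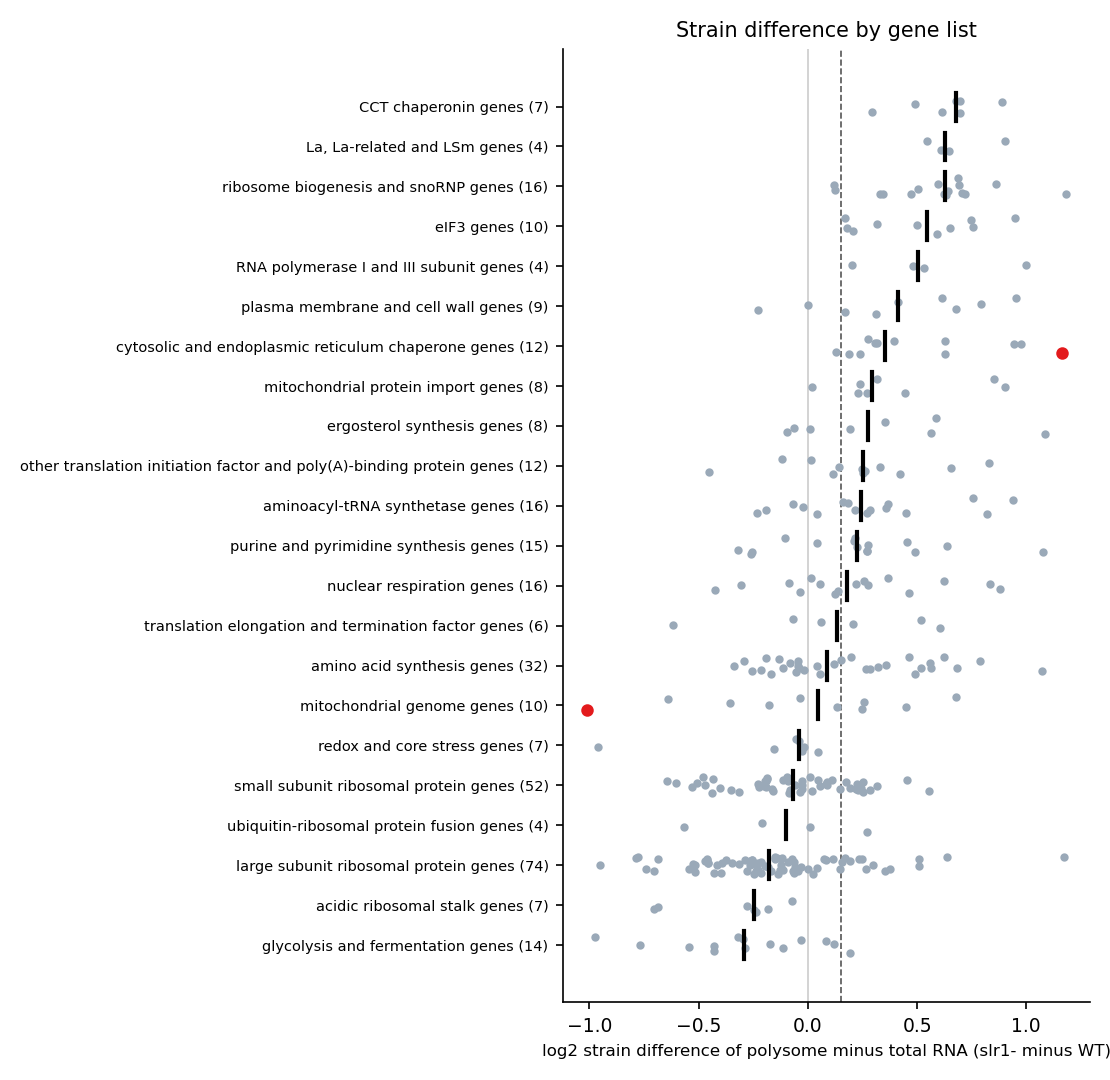
Log2 strain difference (horizontal axis) of every member (points) of the gene lists with at least 4 members (rows, number of genes in brackets), with list medians as black bars, called genes in red and the median of all genes, 0.15, as a dashed line. CCT, La and LSm, ribosome biogenesis and eIF3 genes have medians from 0.55 to 0.68, and glycolysis and stalk genes lie at −0.29 and −0.25.

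No member of the lists of biosynthesis and respiration was called. Amino acid synthesis (32 genes) had a median of 0.09, with ser1 at 1.07 ± 0.30 (edgeR quasi-likelihood, adjusted p = 0.0712), hom2 at 0.62 ± 0.18 (0.0757) and pro3 at 0.79 ± 0.25 (0.087). Nuclear respiration genes (16) had a median of 0.18, with cox13 at 0.83 ± 0.25 and atp15 at 0.88 ± 0.28. Both of these had a higher level in WT total replicate 2 than in replicate 1, with 423 and 599 normalised counts for cox13 and 539 and 861 for atp15. Without WT total replicate 2 the strain differences were 0.56 and 0.50. Nucleotide synthesis genes (15) had a median of 0.22. These 3 medians turned to −0.18, −0.09 and −0.04 with TMM factors without ribosomal protein genes. That of amino acid synthesis was also below 0 in 4 other alternatives (genes of at least 500 counts, and without slr1- total replicate 1, WT polysome replicate 2 or slr1- polysome replicate 2), with a range of −0.05 to 0.27 without 1 library. That of respiration was also just below 0 without WT total replicate 2, and that of nucleotide synthesis ran from 0.05 to 0.42 without 1 library. The medians of amino acid synthesis, respiration and nucleotide synthesis changed their side of the all-gene median in 4, 3 and 2 of the 16 alternatives.

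Plasma membrane and cell wall genes (9) had a median of 0.41, and none was called. Its sign held in all 16 alternatives, with 0.26 to 0.58 without 1 library. The cell wall gene ecm33 was at 0.61 ± 0.20 (edgeR quasi-likelihood, adjusted p = 0.105). The proton pump gene pma1 was at 0.95 ± 0.38, with 879 and 462 normalised counts in the WT total libraries, and at 0.42 without WT total replicate 1. Ergosterol synthesis (8 genes) had a median of 0.27 (0.15 to 0.45 without 1 library) and mitochondrial protein import (8 genes) 0.29 (0.15 to 0.44 without 1 library). Of the 7 redox and core stress genes 6 were below 0, with a median of −0.04. It turned above 0 in 4 alternatives (0.05 with library sizes alone, among genes of at least 500 counts, and without WT total replicate 1 or slr1- polysome replicate 2). Without slr1- polysome replicate 1 it was −0.24. Less the all-gene median of the same setting, it stayed below 0 in all 16 alternatives, at −0.28 to −0.03. The genes of the transcription regulators fil1, pac2 and sfp1 had the highest median polysome minus total RNA among the lists, 1.21 in WT and 1.40 in slr1-. This list was chosen with earlier results of these data known, so its rank does not show a trait of regulators. In the list of other initiation factors the highest value was 1.24 in WT and 1.89 in slr1-. The strain differences of fil1, pac2 and sfp1 were 0.36 ± 0.26, 0.19 ± 0.24 and 0.21 ± 0.22.

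Across genes the strain difference was lower where the mean count was higher, with Pearson r = −0.42 and Spearman rho = −0.46 over 527 genes, which share the 8 libraries and are not replicates. Among the 401 genes other than ribosomal protein genes r was −0.39 and rho −0.37, and among the 126 ribosomal protein genes they were 0.10 and 0.11. Mean count also went with the slr1- minus WT difference in total RNA, with r = 0.58 over 527 genes. No listed gene had under 256 counts in WT total replicate 1, so a gene with few counts overall was listed only with that many there. How far this selection shaped the correlations with mean count, or the strain differences of genes with few counts, was not tested. Coding length went with the polysome to total ratio of each strain, with r = 0.36 in WT and 0.38 in slr1- over 515 genes. With the strain difference the correlation was 0.19, and 0.03 without ribosomal protein genes.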

How the data were processed

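Per the labels, TRIzol-extracted total and polysome RNA of both strains was freed of ribosomal RNA and sequenced from stranded libraries as single 50 bp reads. Reads were processed with Bowtie and RSEM, per the submitters' processing notes; of versions, options and build nothing is stated there. In the deposited table the authors give a whole-number count per gene and library. It also holds, per the file headers, the authors' log2 fold changes, p-values, direction scores and ratios, none used here. The table is part of a longer one, and the rule that selected its genes is not stated. Totals over the listed genes were 550490 to 1110838 per library, which is not library depth. The lowest mean count was 161, and no gene was filtered.

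A quasi-likelihood model in edgeR 4.0.16, run in R 4.3.3, used the counts with TMM factors and 1 mean per group over all 8 libraries (biological coefficient of variation 0.113). SE is the absolute log2 value over the square root of F. The script was tested on simulated data. Names and sequences came from RefSeq ASM294v3, which matched 515 of 527 identifiers. Alternatives were DESeq2 1.42.0, limma-voom (limma 3.58.1), other scaling factors, genes of at least 500 counts, replicate number as a block, and each library left out. Named genes are the 10 of lowest p in each direction, since fewer than 10 passed, and up to 3 of lowest p per list; rpl39, fba1, sti1, hsp90 and the copies of ribosomal protein genes were added after their values were seen. The genes, lists and tests were chosen with earlier results of these data known. Lists are described by counts and medians, without a test.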

Additional observations from a re-analysis of the deposited data

Results flagged for a closer look

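The slr1- minus WT differences of the 2 RNA pools differed from each other for 2 genes by the interaction test (edgeR quasi-likelihood, adjusted over 527 genes). For aha1 the strain difference in polysome relative to total RNA was 1.17 (adjusted p = 0.0353), with polysome minus total RNA of 0.28 in WT and 1.44 in slr1-. For SPMIT.10.1 it was −1.01 (adjusted p = 0.0221), with −4.31 in WT and −5.32 in slr1-. SPMIT.10.1 is RNA of the mitochondrial genome, which cytosolic polysomes do not translate. Each value had the same sign in every combination of single libraries. Both genes missed the threshold with limma-voom and with TMM factors without ribosomal protein genes. Over the alternatives aha1 was 0.89 to 1.27 and SPMIT.10.1 −1.30 to −0.92.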

How the results depend on the processing

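The number of called genes was 2 (1 higher, 1 lower) and was 2 (1, 1) with DESeq2 size factors. It was 37 (19, 18) with DESeq2, 0 (0, 0) with limma-voom, 0 (0, 0) with TMM factors without ribosomal protein genes (140 genes at an unadjusted p under 0.05), 31 (25, 6) with library sizes alone and 13 (8, 5) among the 312 genes of at least 500 counts. Without 1 library it was 0 to 77 (0 to 61 higher, 0 to 16 lower), with 90 to 117 genes at an unadjusted p under 0.05 where edgeR's count was 0. With replicate number as a block it was 9 (4, 5), and with a replicate block per strain 46 (35, 11). The labels do not say that same-numbered libraries share a culture. Deviations of same-numbered total and polysome libraries correlated with r = 0.29 in WT and 0.07 in slr1-, and with −0.29 between WT total and slr1- polysome RNA.

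The median of ribosomal protein genes moved from −0.13 to −0.41 with TMM factors without them and was −0.22 to −0.06 without 1 library. With the same factors the median of all genes moved from 0.15 to −0.12. Of 1244 values of 80 named genes under the alternatives, 1051 kept direction and side of the threshold, 164 newly passed it, 13 no longer passed and 16 changed sign. Sign changes touched genes near 0. With TMM factors without ribosomal protein genes ssc1 was −0.20, htb1 −0.12, pac2 −0.083, sfp1 −0.054 and ubi2 −0.011. With DESeq2 and with its size factors ssc1 was −0.0090, and with library sizes alone gnd1 was 0.031. Without 1 library ssc1 ran from −0.14 to 0.24, gnd1 from −0.26 to 0.13, htb1 from −0.19 to 0.31 and pac2 from −0.035 to 0.35. The cause of these changes was not tested. Each group has 2 libraries, the table holds selected genes, and scaling rests on them, so values are relative to the listed genes.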

Other observations

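The 180 genes in none of the lists had a median strain difference of 0.23, beside 0.24 over all genes other than ribosomal protein genes. Among listed genes other than ribosomal protein genes, the 22 with CAGTCACA in the promoter had a median of −0.07 and the 367 without it 0.25. The ubiquitin-ribosomal protein fusion genes and cpc2 count among these other genes, and whether they are among the 22 was not looked at. Histone genes stood high in polysome relative to total RNA in both strains, with htb1 at 0.94 in WT and 1.09 in slr1- and hht2 at 0.34 and 0.22. Their strain differences were 0.15 ± 0.23 and −0.12 ± 0.18, and the histone chaperone gene nap1 was at 0.74 ± 0.27, none past the threshold.

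WT total replicate 2 held more counts than replicate 1 for several small-protein genes. The import genes tom5 and tim10 had 2178 and 3433, and 279 and 498 normalised counts in WT total RNA, and lsm7 had 402 and 641. Their strain differences of 0.85 ± 0.28, 0.90 ± 0.32 and 0.61 ± 0.28 did not pass the threshold, and without WT total replicate 2 they were 0.49, 0.42 and 0.24.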
